A study of Mus musculus with 12 samples.

Results

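The tail nucleus pulposus of 6 WT mice aged 12 months was profiled by total RNA sequencing, and the profile below describes what this tissue expresses and how far single mice differ. The members are the samples labelled WT, 6 of the 12 samples of a study that also sequenced Opa1cKO mice. Their expression is described without a comparison of genotypes. The study asked how deletion of Opa1, a GTPase that fuses inner mitochondrial membranes, alters the transcriptome of the adult disc. The WT mice were on a C57BL/6-129/SvEv background, and like the knockouts they received tamoxifen in palm oil at 100 mg/kg on 3 days in a row at 3 months of age. They were then aged for 9 more months before the caudal nucleus pulposus was dissected under a stereo microscope. AcanCre, the tamoxifen-activated recombinase of the study, is driven by the aggrecan gene, and whether WT mice carried it or floxed Opa1 alleles is not stated. Of the 6 mice, 4 were labelled female (WT 1 to 4) and 2 male (WT 5 and 6). Each library came from 1 mouse, from 50 ng of RNA, a stranded kit that removes ribosomal RNA, and 14 PCR cycles.

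The nucleus pulposus is the gel core of the intervertebral disc and descends from the embryonic notochord. Its cells sit without blood vessels in a matrix rich in aggrecan, a proteoglycan whose charged chains hold water and resist compression. The tissue is known for low oxygen, a strong reliance on glycolysis and constant activity of hypoxia-inducible factors. Vacuolated notochordal cells are known for cytokeratins and for T (brachyury), the T-box factor that specifies the notochord.

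The libraries held 45657321 to 53261644 counts and 18332 to 18834 genes with at least 1 count. Spearman correlations between libraries, across genes, ran from 0.962 (WT 2 with WT 6) to 0.986 (WT 5 with WT 6), and a check for 1 library deposited under 2 names found none (chi-square per degree of freedom 53.5 to 118, set against counting error only). Reads of sex-linked genes went against the labelled sex in 3 of the 6 libraries. WT 4, labelled female, had 15816 counts over 4 Y-linked genes and 24 of Xist, the RNA of the inactive X chromosome. WT 5 and WT 6, labelled male, had 192900 and 209637 Xist counts and 2 Y-linked counts each. Whether sex entries, titles or samples were exchanged cannot be told from the tables, and the WT label of these 3 libraries carries that doubt. Labelled sex was therefore not used, and results were also computed without these 3 libraries. Opa1 itself had 95.7, 108, 108, 117, 69.2 and 108 CPM in WT 1 to 6, the lowest in WT 5, 1 of these 3 libraries. CPM are counts scaled by library size, and TPM are the authors' values, which are also divided by gene length and so allow levels of different genes to be compared.

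In all 6 mice 12961 genes reached 1 TPM, of which 11606 were protein-coding. A level of 100 TPM in every library was reached by 1457 genes, and 1000 TPM by 67. The 10 highest genes held 13.2 ± 0.573% (SD, n = 6) of the TPM sum, the highest 50 held 23.3 ± 0.519% and the highest 100 held 29.1 ± 0.735%. Errors below are SDs over the 6 libraries unless stated. Car3, which encodes the cytosolic carbonic anhydrase 3, was the most abundant gene in the table and by itself held 4.59 ± 0.352% of the TPM sum. Its values were lowest 41241, median 45468 and highest 51878 TPM, and the other top genes lay well below it. Spp1, the secreted phosphoprotein osteopontin, was next at 19478 ± 3827 TPM, followed by Malat1, a nuclear long non-coding RNA, at 12367 ± 2337 TPM. Lgals3, the sugar-binding galectin 3 of notochordal cells, had 10825 ± 1674 TPM, and Eef1a1, a translation elongation factor, had 9902 ± 1304 TPM. Vim, the intermediate filament vimentin, had 8828 ± 512 TPM. Acan, the aggrecan core protein, followed at 7961 ± 1412 TPM, ahead of the surface protein gene Cd24a at 6341 ± 936 TPM.

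**Figure D1:**
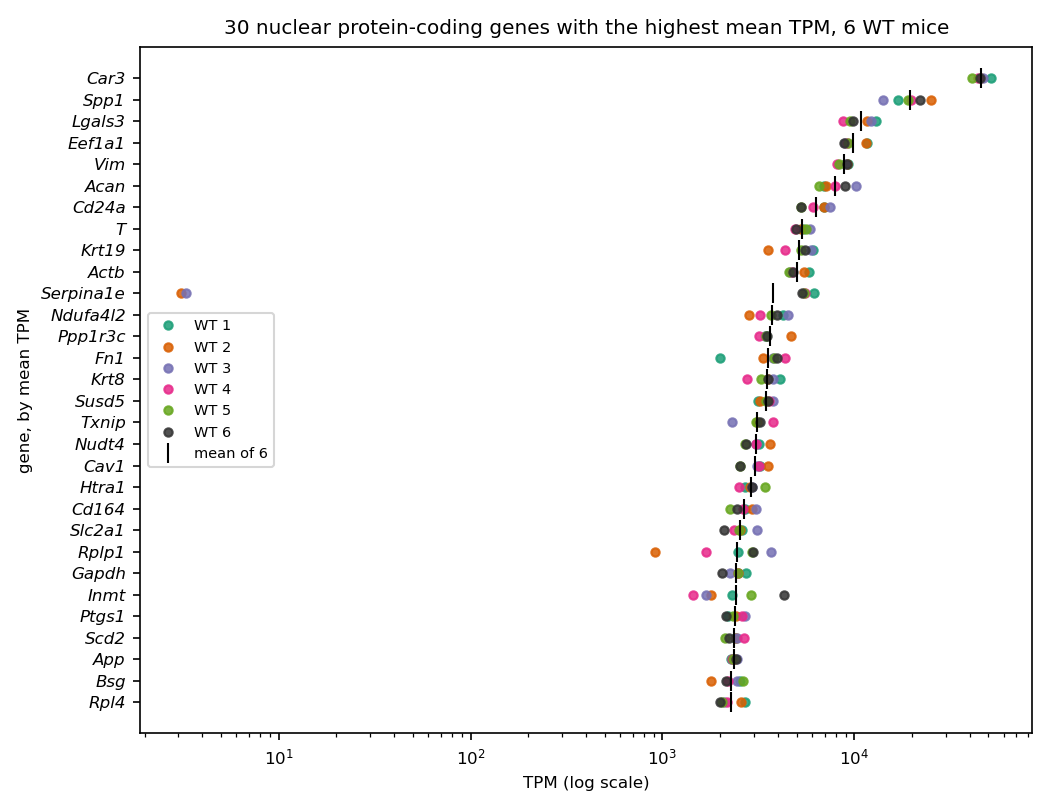
TPM (log axis) of the 30 nuclear protein-coding genes with the highest mean TPM, with 1 point for each of the 6 WT libraries and a bar at the mean. Points lie close together for most genes, while Serpina1e is near 3 TPM in WT 2 and WT 3 and at 5369 to 6153 TPM in the other 4.

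Several of the 30 highest nuclear protein-coding genes belong to energy supply. Ndufa4l2, a hypoxia-inducible relative of a cytochrome oxidase subunit, had 3744 ± 646 TPM, against 40.8 ± 6.06 TPM for Ndufa4 itself. Ppp1r3c, which targets a phosphatase to glycogen, had 3623 ± 531 TPM, and the glucose transporter gene Slc2a1 had 2529 ± 338 TPM. Bsg, the chaperone of lactate transporters, had 2289 ± 306 TPM. Txnip, a thioredoxin-binding protein that limits glucose uptake, had 3109 ± 465 TPM, and the stearoyl desaturase gene Scd2 had 2373 ± 194 TPM. Others act in the matrix or at the membrane. Fibronectin (Fn1) had 3540.1 ± 824 TPM, the secreted serine protease gene Htra1 2893 ± 306 TPM, the caveolin gene Cav1 3027 ± 403 TPM and Susd5 3466 ± 235 TPM. Ptgs1, the constitutive cyclooxygenase of prostaglandin synthesis, had 2402 ± 215 TPM, and App, the amyloid precursor protein, had 2363 ± 69.4 TPM. Inmt, an N-methyltransferase, varied most among these after Serpina1e, with lowest 1451, median 2050.1 and highest 4315 TPM, WT 6 being the highest. Rplp1, Rpl4, Eef1a1, Gapdh and Actb have processed copies elsewhere in the genome, and how reads shared with such copies were counted is not given, so their levels are uncertain. The same limit holds for the level and spread of any other gene with such copies.

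Markers of the labelled tissue were high in every library. T, on chr17:8434423-8442496 of mm10, had lowest 4916, median 5341 and highest 5898 TPM, and it was the highest transcription factor of 524 screened by family. Its coefficient of variation (CV, the SD over the mean of CPM) was 9.25%, below the median gene at 11.01%. The cytokeratin 19 gene Krt19 had lowest 3571, median 5395 and highest 6112 TPM, WT 2 being the lowest library, and its partner Krt8 had lowest 2765, median 3557 and highest 4114 TPM. Cd24a, a surface marker of notochordal cells, had lowest 5248, median 6545 and highest 7430.2 TPM. Acan had lowest 6536, median 7528 and highest 10248 TPM, with WT 3 the highest library. Together the 19 genes listed as notochord and nucleus pulposus identity held 7.95 ± 0.686% of the TPM sum, most of it Car3, and 4.51% of counts. Of these, 14 reached 1 TPM in all 6 mice and 10 reached 100 TPM.

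Other members of that list spanned a wide range. The heparan sulphate proteoglycan gene Gpc3 had 1590.1 ± 182 TPM, N-cadherin (Cdh2) 293 ± 18.3 TPM and the adhesion molecule gene Ncam1 132 ± 12.8 TPM. Krt18, the usual partner of keratin 8, was at 262 ± 105 TPM, far under Krt8, and ranged from 141 in WT 4 to 393 in WT 5. Chrd, which encodes the BMP antagonist chordin, had 64.7 ± 14.1 TPM. The forkhead factors of the node and notochord were low, with 13.1 ± 4.25 TPM for Foxa2 and 9.91 ± 2.26 TPM for Foxa1. The notochord morphogen Shh had lowest 0.624, median 0.830 and highest 2.04 TPM. The BMP antagonist gene Nog had lowest 0.236, median 0.631 and highest 2.27 TPM, and WT 3 was its highest library. Noto, a homeobox gene of the notochord, had lowest 0.246, median 0.489 and highest 1.16 TPM, so all 3 stayed near 1 TPM. Basp1, a membrane-bound signalling protein, differed most between mice among list members that reached 1 TPM on average, from 0.141 TPM in WT 6 to 16.4 in WT 2. Car12, a membrane-bound carbonic anhydrase, stayed at or below 0.0496 TPM.

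Proteoglycans and link proteins held 1.44 ± 0.162% of the TPM sum, and 21 of 31 genes reached 1 TPM in all mice. After Acan came Fmod (fibromodulin, which binds collagen fibrils) with lowest 1549.8, median 1953 and highest 2287 TPM, then the membrane proteoglycan Sdc4 with 1735 ± 141 TPM. Prelp, a leucine-rich proteoglycan of basement membranes and cartilage, was steady at 694 ± 35.9 TPM (CV 6.28%). Hapln1, the link protein that holds aggrecan to hyaluronan, had 337 ± 46.6 TPM, and Hspg2 (perlecan) had 359 ± 143 TPM. Bgn, Dcn and Lum, which are small proteoglycans like Fmod, were much lower. Bgn (biglycan) had 67.4 ± 10.9 TPM, Dcn (decorin) lowest 4.12, median 12.5 and highest 53.5 TPM and Lum (lumican) 0.651 ± 0.471 TPM. Vcan, the large aggregating proteoglycan versican, had lowest 4.14, median 11.1 and highest 41.9 TPM. For both Dcn and Vcan the highest library was WT 3 and the lowest WT 1.

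Genes that build glycosaminoglycan chains held 0.349 ± 0.0358% of the TPM sum. The first step was represented by Xylt1, a xylosyltransferase that starts the chain, at lowest 678, median 996 and highest 1326 TPM, against 28.6 ± 6.20 TPM for its relative Xylt2. Csgalnact1, which starts chondroitin sulphate, had 309 ± 34.95 TPM, and the sulphotransferase genes Chst12 and Chst11 had 262 ± 59.1 TPM and 209.7 ± 40.5 TPM. Ugp2 and Ugdh, which make the sugar donors, had 324 ± 38.6 TPM and 187 ± 38.4 TPM. Papss1, which makes the sulphate donor, had 204 ± 20.2 TPM, and the sulphate transporter gene Slc26a2 had 50.5 ± 15.5 TPM. The hyaluronan synthases were low. Has2 had 4.63 ± 1.39 TPM, while Has1 and Has3 averaged below 1 TPM, at 0.538 ± 0.186 TPM and 0.154 ± 0.0344 TPM.

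Fibrillar and network collagens made up a small share. The 44 collagen chains held 0.304 ± 0.0628% of the TPM sum and 0.506% of counts, and 24 of them reached 1 TPM in all mice. Type VI, the beaded-filament collagen that surrounds disc cells, led with lowest 679, median 904 and highest 1069 TPM for Col6a1, 505 ± 94.6 TPM for Col6a2 and 443 ± 81.4 TPM for Col6a3. Col2a1, the main fibril collagen of cartilage and nucleus pulposus, had lowest 187, median 293 and highest 414 TPM, with WT 1 the lowest and WT 3 the highest library. The fibril-nucleating chains Col5a1, Col11a2 and Col11a1 had 235 ± 67.1 TPM, 104 ± 42.7 TPM and 102 ± 35.3 TPM. The chains of type I collagen were uneven: Col1a1 had lowest 92.3, median 184 and highest 225 TPM, whereas Col1a2 had lowest 1.71, median 5.50 and highest 8.87 TPM. Col3a1 had 0.685 ± 0.589 TPM and the hypertrophic cartilage collagen Col10a1 1.95 ± 1.65 TPM.

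Other secreted matrix proteins held 2.79 ± 0.387% of the TPM sum, largely through Spp1 and Fn1. Fn1 had lowest 1994, median 3792 and highest 4342 TPM, with WT 1 the lowest library. Sparc, a collagen-binding counter-adhesive protein, had 1310.0 ± 104 TPM, and Ccn3 and Ccn1, matricellular proteins of the CCN family, had 526 ± 101 TPM and 410.3 ± 56.9 TPM. Tnxb (tenascin X) had 516 ± 153 TPM and Mgp, an inhibitor of calcification, 454 ± 114 TPM. Elastic fibre genes were scarce, with 0.844 ± 0.946 TPM for Eln and 0.962 ± 0.476 TPM for Fbn1. The laminin chain genes Lamb3 and Lamb2, of basement membranes, had 222 ± 52.6 TPM and 133 ± 35.6 TPM. Matn1, a cartilage matrilin, and Postn (periostin) were at 0.00835 and 0.468 TPM.

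Among enzymes that cut or protect matrix, a serine protease and metalloproteinase inhibitors were highest. The 40 genes listed held 0.837 ± 0.0558% of the TPM sum. Htra1 had lowest 2507, median 2894 and highest 3422 TPM. Timp3 and Timp2, inhibitors of metalloproteinases, had 2038 ± 309 TPM and 1325 ± 70.1 TPM, while Timp1 had 11.6 ± 4.96 TPM. The lysosomal cathepsin genes Ctsd, Ctsb and Ctsk had 539 ± 22.3 TPM, 419 ± 11.8 TPM and 166 ± 6.73 TPM. Adamts1, which cleaves aggrecan and versican, was the highest ADAMTS gene of the list at 212 ± 77.9 TPM, and the aggrecanase genes Adamts5 and Adamts4 had 12.8 ± 1.93 TPM and 0.146 ± 0.111 TPM. The collagenase and stromelysin genes Mmp13 and Mmp3 had 0.219 ± 0.151 TPM and 0.249 ± 0.242 TPM. The membrane metalloproteinase gene Mmp14 had 30.9 ± 7.91 TPM.

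Glycolysis was expressed at a high level. Its listed genes, with glucose and lactate transport, held 1.60 ± 0.137% of the TPM sum, and 29 of 33 matched genes reached 1 TPM in all mice. Slc2a1 had lowest 2086, median 2514 and highest 3113 TPM. Gapdh, Pkm (pyruvate kinase) and Ldha (lactate dehydrogenase A) had 2409 ± 229.8 TPM, 2171 ± 123.04 TPM and 2134 ± 229.6 TPM, with Ldhb at 96.8 ± 11.9 TPM. Eno1, Tpi1 and Pgk1, enzymes of the lower pathway, had 1729 ± 193 TPM, 1407 ± 190.1 TPM and 1402 ± 197 TPM. Among hexokinases, which trap glucose in the cell, Hk2 had 196 ± 20.7 TPM and Hk1 66.5 ± 4.92 TPM. Pfkfb3, which makes the activator of phosphofructokinase, had 253 ± 33.2 TPM. The lactate exporter gene Slc16a3 had 114 ± 21.9 TPM.

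All 22 genes listed for oxygen sensing and the hypoxia response reached 1 TPM in all 6 mice, and 13 reached 100 TPM. Bnip3, a mitophagy receptor induced by hypoxia, had lowest 1804, median 2001 and highest 2386 TPM. Ndrg1, a hypoxia-induced stress protein, had 746 ± 67.3 TPM, the growth factor gene Vegfa 683 ± 177 TPM and the vasodilator peptide gene Adm 373 ± 47.3 TPM. The oxygen-regulated subunits Hif1a and Epas1 overlapped in level, with 226 ± 18.9 TPM and 229 ± 56.1 TPM. Their partner Arnt had 61.02 ± 3.53 TPM with a CV of 2.27%. The oxygen-sensing prolyl hydroxylase genes Egln1 and Egln3 had 378 ± 29.5 TPM and 351 ± 32.1 TPM, and Egln2 61.1 ± 13.3 TPM. Car9, a hypoxia-inducible carbonic anhydrase of the cell surface, had 189 ± 31.01 TPM.

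The core letters of the hypoxia response element, ACGTG or GCGTG on either strand, were searched in the 250 bases before the gene start of 1 RefSeq start per gene (GRCm38.p6). They were present in 22 of 30 glycolysis promoters (73.3%) and 15 of 19 promoters of the hypoxia list (78.9%). Of all 16554 promoters of protein-coding genes 44.4% held them, and of the 9215 whose genes reached 1 TPM in all mice 57.6%. A match of 5 letters is a description of the sequence and does not show binding. The promoters of Gapdh, Pgk1 and Adm are shown because each holds 2 matches and belongs to an abundant glycolytic or hypoxia-inducible gene. Capitals mark the matches, which start 54 and 44 bases before the RefSeq start in Gapdh (chr6:125165774-125166023, minus strand). On that strand Gapdh starts at 125166467 in GENCODE M21, so the printed bases lie within the gene as annotated there. The distances in Gapdh therefore depend on the annotation. The matches start 150 and 131 bases before the RefSeq start in Pgk1 (chrX:106186850-106187099, plus strand), and 90 and 54 bases before it in Adm (chr7:110627407-110627656, plus strand).
Gapdh: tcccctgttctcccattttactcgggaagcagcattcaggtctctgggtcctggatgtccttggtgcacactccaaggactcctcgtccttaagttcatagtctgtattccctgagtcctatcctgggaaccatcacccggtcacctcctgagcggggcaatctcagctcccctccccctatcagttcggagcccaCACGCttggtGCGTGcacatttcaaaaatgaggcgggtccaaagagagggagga
Pgk1: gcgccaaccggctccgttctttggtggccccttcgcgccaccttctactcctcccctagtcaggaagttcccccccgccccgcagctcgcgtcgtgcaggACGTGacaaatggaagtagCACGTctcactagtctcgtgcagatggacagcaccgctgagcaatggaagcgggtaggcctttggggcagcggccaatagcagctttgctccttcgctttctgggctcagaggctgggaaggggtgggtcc
Adm: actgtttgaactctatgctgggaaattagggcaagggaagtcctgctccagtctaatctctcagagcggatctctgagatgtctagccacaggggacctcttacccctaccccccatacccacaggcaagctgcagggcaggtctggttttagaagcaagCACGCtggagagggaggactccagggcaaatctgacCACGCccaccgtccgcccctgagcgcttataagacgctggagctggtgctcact

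Mitochondrial genes were broadly present, and their share depended on the scale. Nuclear-encoded respiratory chain subunits held 0.832 ± 0.0729% of the TPM sum, above collagens, but 0.305% of counts, below collagens. Of these 75 genes 74 reached 1 TPM in all mice. The highest was Cox4i2, the hypoxia-inducible isoform of cytochrome oxidase subunit 4, with lowest 388, median 582 and highest 679 TPM. Its common isoform Cox4i1 had lowest 268, median 297 and highest 346 TPM. The ATP synthase genes Atp5a1 and Atp5b had 469 ± 39.6 TPM and 357 ± 34.9 TPM, and the muscle isoform gene Cox6a2 had no count. Pyruvate dehydrogenase and the citric acid cycle held 0.283 ± 0.0176%, all 26 genes reaching 1 TPM, with Pdha1 first at 376 ± 21.1 TPM. Fatty acid uptake and oxidation held 0.108 ± 0.00470%. Within it Acaa2, a thiolase, had 119 ± 11.2 TPM, the carnitine transferase gene Cpt1a 15.05 ± 1.08 TPM and the fatty acid transporter gene Cd36 15.4 ± 4.28 TPM. Fatty acid and sterol synthesis held more, 0.487 ± 0.0311%, chiefly through the desaturases Scd2 and Scd1 (839.8 ± 122 TPM) and the regulator Srebf1 (488 ± 117 TPM).

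Transcripts of mitochondrial DNA held 0.174 ± 0.0480% of counts and 0.576 ± 0.169% of the TPM sum. They were uneven along the genome. mt-Co1, a cytochrome oxidase subunit, had lowest 2426, median 4497 and highest 5253 TPM, and mt-Cytb, cytochrome b of complex III, had 599 ± 192 TPM. In contrast mt-Co2, mt-Co3 and mt-Atp6, encoded on the same strand, had 12.96 ± 4.51 TPM, 5.70 ± 2.03 TPM and 1.41 ± 0.845 TPM. How reads that also match nuclear copies of mitochondrial DNA were counted is not stated, so these levels are uncertain. The lowest libraries for mt-Co1 were WT 1 and WT 2. Genes of mitochondrial fusion, fission and cristae, the process Opa1 serves, held 0.123 ± 0.00294% of the TPM sum. Fis1, a fission adaptor, had 224 ± 28.5 TPM, the outer membrane fusion gene Mfn2 88.3 ± 4.89 TPM, the fission GTPase gene Dnm1l 82.1 ± 7.98 TPM and Opa1 58.8 ± 10.99 TPM. Ppargc1a, a coactivator of mitochondrial biogenesis, had 0.802 ± 0.557 TPM.

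Genes of tonicity and ion transport held 4.97 ± 0.346% of the TPM sum, again mostly through Car3. Slc6a6, a taurine transporter used to balance osmotic pressure, had 876 ± 85.8 TPM, and the sodium pump subunit gene Atp1b3 had 549 ± 63.5 TPM. Slc12a2, a sodium, potassium and chloride cotransporter, had lowest 401, median 447 and highest 678 TPM. Nfat5, the tonicity-responsive factor, had 53.1 ± 7.63 TPM. Its known target Slc6a12, a betaine transporter, varied between 33.3 and 167 TPM. Water channels were scarce: Aqp1 had 1.79 ± 0.723 TPM and Aqp3 0.00859 ± 0.0210 TPM. Among other carbonic anhydrases Car2 had 65.2 ± 25.8 TPM and Car1 40.4 ± 6.86 TPM.

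Of 85 secreted signals and antagonists, 38 reached 1 TPM in all mice and 36 stayed below it in all. After Vegfa and Adm came Sostdc1, an antagonist of BMP and Wnt signals, with 339 ± 34.2 TPM. The growth factor genes Fgf1 and Wnt16 had 265 ± 42.5 TPM and 162 ± 22.9 TPM. Tgfb2 and Tgfb3 had 125 ± 14.7 TPM and 122 ± 4.57 TPM, against 6.99 ± 1.37 TPM for Tgfb1. Bmp5 and Bmp7 had 68.7 ± 10.4 TPM and 49.5 ± 10.1 TPM. The inflammatory cytokine genes Il6, Il1b and Tnf were at 0.400, 0.0858 and 0.0499 TPM.

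Genes of protein folding (0.909 ± 0.0591% of the TPM sum and 0.549% of counts), redox defence (0.999 ± 0.0654% and 0.560%) and autophagy (0.764 ± 0.0402%) were abundant. The small heat shock genes Hspb1 and Cryab had 1681 ± 335 TPM and 655 ± 154 TPM, and Hsp90ab1, a cytosolic chaperone, 1033 ± 119.7 TPM. The ferritin chain genes Ftl1 and Fth1 had 1441 ± 378 TPM and 1065 ± 163 TPM, and the glutathione transferase gene Gstm1 844 ± 118 TPM. All 29 autophagy and mitophagy genes reached 1 TPM in all mice. Pink1, the mitophagy kinase, had 849 ± 92.3 TPM. Genes of cell cycle arrest and proliferation held 0.146 ± 0.00700%. Ccnd1, a cyclin of early cell cycle, had 350.0 ± 31.7 TPM, and the cell cycle inhibitor genes Cdkn1a and Cdkn1b had 215 ± 44.6 TPM and 151 ± 4.15 TPM, and the senescence-linked Cdkn2a had 2.15 ± 1.09 TPM. The proliferation gene Mki67 had 3.77 ± 1.87 TPM. All 19 clock genes (0.298 ± 0.0465% of the TPM sum) reached 1 TPM, led by Bhlhe40 (604 ± 125 TPM) and the repressor gene Nr1d1 (492 ± 137 TPM). The cytoskeleton list held 2.48 ± 0.177%, most of it Vim and Actb. In it the annexin gene Anxa1 had 1692 ± 184 TPM, S100b 513 ± 58.04 TPM and the keratin gene Krt80 283 ± 26.03 TPM.

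Transcription factors were screened by family, and 276 of 524 reached 1 TPM in all 6 mice. Behind T stood Id4, an inhibitor of bHLH factors, with lowest 1061, median 1186 and highest 1365 TPM. Sox9, the master factor of cartilage and aggrecan expression, had lowest 518, median 688 and highest 799 TPM. Its cartilage partner Sox6 and its relative Sox8 had 120.1 ± 20.01 TPM and 108 ± 14.4 TPM. The endothelial and mechanosensitive factor Klf2 had 706 ± 309 TPM and its relative Klf6 555 ± 120.1 TPM. Creb3l2, a membrane-bound factor of secretory cells, had 507 ± 76.3 TPM. The homeobox gene Barx2, known from cartilage and muscle, had 375 ± 26.02 TPM, and Lmx1a 232 ± 24.6 TPM. The glucocorticoid receptor gene Nr3c1 had 319 ± 27.9 TPM. Fos followed Id4 on average at 1151 ± 1410.1 TPM, but this mean rested on WT 6, as described below. None of 9 Paired-family genes reached 1 TPM in all mice. The family includes Pax1, a factor of the sclerotome from which the surrounding disc descends.

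Hox genes, which encode position along the body axis, were expressed from the D and A clusters. Of 39 genes 27 averaged at least 1 TPM and 16 at least 10 TPM. Summed mean levels were 491 TPM for 9 genes of the D cluster and 383 TPM for 11 of the A cluster. They were 51.7 TPM for 10 genes of the B cluster and 6.05 TPM for 9 of the C cluster. Hoxd9 was highest with lowest 169, median 200.4 and highest 214 TPM, followed by Hoxd8 with lowest 136, median 146 and highest 168 TPM. These neighbours did not overlap between mice, whereas the next pair, Hoxd10 and Hoxa5, did, with lowest 75.3, median 108 and highest 125 TPM and lowest 96.6, median 100.4 and highest 110.3 TPM. Hoxa7 and Hoxa6 had 84.3 ± 3.85 TPM and 70.3 ± 9.63 TPM. The genes of the most posterior group were low: Hoxd13 had 5.11 ± 2.32 TPM, Hoxb13 2.94 ± 1.03 TPM and Hoxa13 0.308 ± 0.255 TPM.

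**Figure D2:**
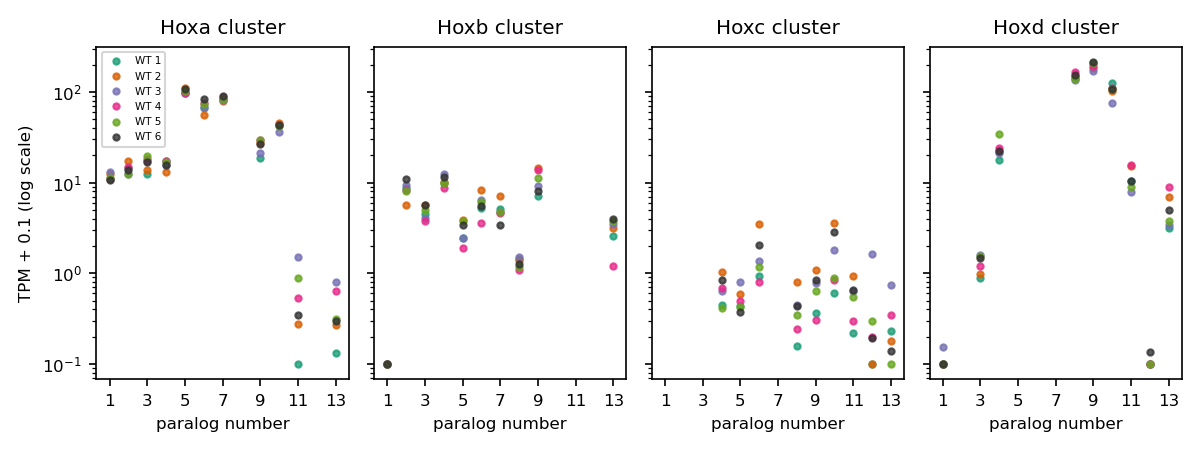
TPM + 0.1 (log axis) of the Hox genes by paralog number, in 1 panel per cluster, with 1 point for each of the 6 WT libraries. The highest levels lie at Hoxd8, Hoxd9 and Hoxd10 (means of 148, 196 and 105 TPM) and at Hoxa5, Hoxa6 and Hoxa7 (102, 70.3 and 84.3 TPM), and the C cluster stays low.

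Markers of blood cells, fat, endothelium and muscle were low. In bulk tissue a low level from few cells and from little RNA per cell cannot be told apart. A count of 0 (3 counts taken as its limit) allows up to 0.0566 to 0.0650 CPM depending on the library, for counting error alone. Summed over 6 red cell genes the libraries had 0.134 to 11.1 TPM, and Hba-a1 had no count. The 6 lymphocyte genes summed to 0.0968 to 1.03 TPM, the 6 adipocyte genes to 0.0927 to 1.70 TPM and the 8 endothelial genes to 12.9 to 20.6 TPM. Skeletal muscle genes summed to 5.54 to 55.04 TPM over 10 genes, the highest in WT 5, where Acta1 reached 22.6 TPM. The 8 osteoblast and osteocyte genes summed to 2.11 to 13.1 TPM. The 7 neutrophil genes summed to 108 TPM in WT 2 and to at most 5.29 TPM in the others.

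Other marker lists held abundant and scarce members side by side. The genes set against each other here were picked after their values were seen. Of 10 macrophage genes, which summed to 153 to 235 TPM, Csf1r had 91.8 ± 28.1 TPM and Cd68 55.5 ± 10.7 TPM, but Adgre1 had 0.0461 ± 0.0993 TPM and C1qa 0.0797 ± 0.155 TPM. Of 11 matched skin keratinocyte genes, which summed to 297 to 551 TPM, Sbsn had 378 ± 70.2 TPM and Krtdap 65.4 ± 29.9 TPM, while Krt5 had no count and Krt14 was at 0.0191 TPM. The 6 mural cell genes summed to 517 to 817 TPM. Acta2, smooth muscle actin, had 517 ± 136 TPM, Cspg4, a proteoglycan of pericytes, 106 ± 23.1 TPM, Myh11, smooth muscle myosin, 37.4 ± 14.3 TPM and the receptor gene Pdgfrb 11.6 ± 4.11 TPM, whereas Rgs5 was at 0.176 TPM and Notch3 at 0.0184 TPM. The 6 osteoclast genes summed to 159 to 176 TPM, nearly all of it the protease gene Ctsk, with Acp5 at 0.250 TPM and Dcstamp without a count. The 8 Schwann cell and neuron genes summed to 499 to 588 TPM. Pmp22, a myelin protein also made elsewhere, had 520.5 ± 39.6 TPM, with Sox10 without a count. For the neighbouring annulus fibrosus and tendon 9 genes, with the abundant Fmod and Col1a1 among them, summed to 1684 to 2555 TPM. The tendon factors Mkx and Scx had 22.2 ± 5.31 TPM and 12.7 ± 3.27 TPM and Tnmd (tenomodulin) 0.142 ± 0.269 TPM. For cartilage 10 genes summed to 169 to 333 TPM, of which Snorc had 123.95 ± 69.3 TPM and Ucma, a secreted cartilage protein, 27.4 ± 11.7 TPM.

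The spread between mice was small for most genes. Among 9196 genes at a mean of 10 CPM or more the median CV was 11.01%, with quartiles of 8.03% and 15.3%. A CV below 10% was found for 3868 genes (42.1%) and above 50% for 68 (0.739%). The common biological coefficient of variation, which removes counting noise, was 18.9% as edgeR's single value for all genes that passed its filter on low counts. The steadiest named genes were Mapk14, the stress kinase p38 alpha, with 61.8 ± 0.513 CPM, and Ncstn, a gamma-secretase subunit, with 83.2 ± 0.703 CPM. The other 8 of the 10 steadiest coding genes were Pigq, Sptan1, Metap1, Mapk1ip1l, Itgb1, Acp2, Epm2aip1 and Tnpo2. Lists differed in spread. The median CV was 7.07% for mitochondrial dynamics, 9.48% for autophagy, 11.5% for the hypoxia list and 14.4% for glycolysis. It was 24.97% for matrix glycoproteins, 30.1% for collagens and 30.9% for mitochondrial DNA. Of 15 collagen chains at 10 CPM or more, 12 were among the 10% of genes with the highest CV.

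The immediate early genes, which are switched on within minutes by stress or handling, had a median CV of 86.5%, the widest apart from sex-linked transcripts among lists with members at 10 CPM or more. The summed TPM of the low neutrophil, red cell and muscle lists varied more between libraries, with CVs of 209.7%, 172% and 97.9%, against 96.8% for the immediate early list. Fos had 309, 259, 127, 175, 654 and 2057 CPM in WT 1 to 6. WT 6 was by far the highest and WT 5 next. Egr1 had 169.8, 108, 55.04, 147, 238 and 991 CPM in the same order. Without WT 6 the mean was 305 CPM for Fos, against 597, and 144 CPM for Egr1, against 285. The median member lay 2.02 (log2) above its own median library in WT 6 and 0.70 above in WT 5. Of the 68 genes with a CV above 50%, WT 6 was the highest library for 23, WT 3 for 21 and WT 1 for 6. Over all 9196 genes WT 6 was the highest for 1556, WT 3 for 1212 and WT 1, the most frequent, for 2352. The highest CVs belonged to the Y-linked genes Ddx3y, Eif2s3y and Uty, which had reads in WT 4.

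Other genes with a wide spread peaked in other libraries. Ccnb1ip1, a cyclin-interacting ligase, had 60.6, 14.3, 505, 33.03, 159 and 219.5 CPM in WT 1 to 6. Cxcl12, a chemokine of stromal cells, had 19.4, 16.02, 52.1, 3.85, 30.1 and 8.77 CPM. Slc15a2, a peptide transporter, had 3.38, 9.12, 7.02, 36.4, 26.1 and 28.1 CPM. The mean of Ccnb1ip1 was 97.4 CPM without WT 3, against 165. Ccnb1ip1 and Cxcl12 were highest in WT 3 and Slc15a2 in WT 4. Socs3, a feedback inhibitor of cytokine signals, Nr4a1, Fosb, Junb and Ier2 were highest in WT 6, as were Iqcn and Gnal. Igfn1 and Cilp, a cartilage matrix protein, were highest in WT 3, Tnfrsf10b in WT 5 and the ribosomal protein gene Rps3a1 in WT 2.

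Collagen chains were lowest in the same libraries as mitochondrial DNA genes. In WT 1 and WT 2 the median collagen chain lay at -0.60 and -0.71 (log2) relative to its median library. The other 4 libraries lay between 0.06 and 0.24. Summed collagen levels were 2176, 2343, 3603, 3598, 3369 and 3124 TPM in WT 1 to 6. For the mitochondrial DNA genes these values were -0.73 in WT 1 and -0.69 in WT 2. The annulus and tendon markers at 10 CPM or more, 4 genes that include Col1a1 and Col1a2, lay at -0.53 and -0.62 there. The 10 cartilage markers, which include Col11a1, Col9a1 and Col10a1, summed to 191 and 169 TPM in WT 1 and WT 2 and to between 257 and 333 TPM in the other 4. The part of either list in these differences was not tested. Nuclear respiratory chain genes did not share this pattern, with 0.30 in WT 1 and -0.06 in WT 2. In WT 3 the matrix genes Dcn, Vcan and Cilp were the highest, Dcn with 68.5 CPM against at most 27.4 CPM elsewhere. Its mean was 23.5 CPM, and 14.6 CPM without WT 3.

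**Figure D3:**
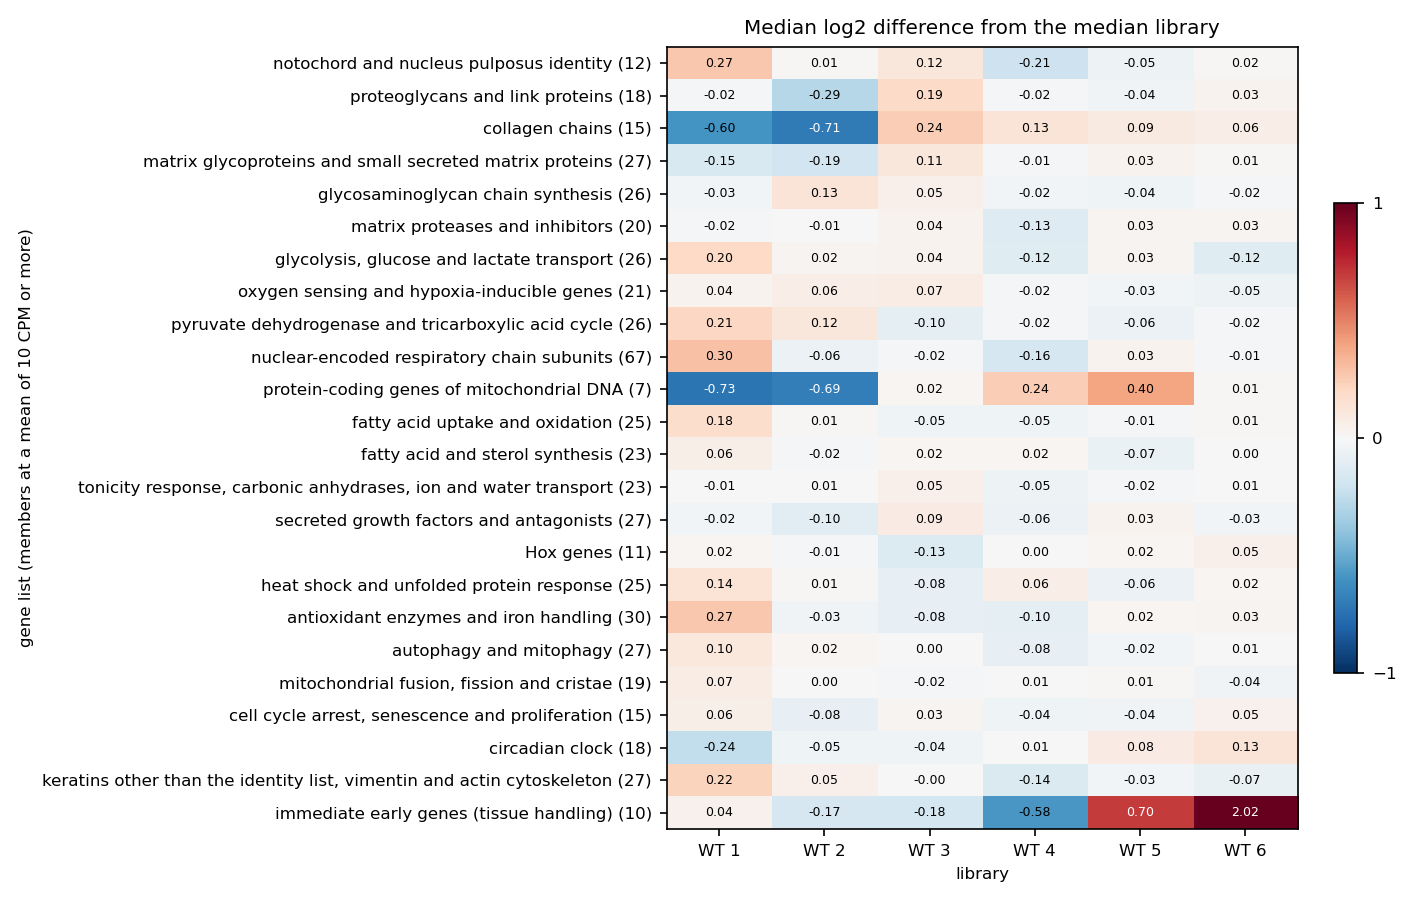
Median over the members of each list (those at a mean of 10 CPM or more, number in brackets) of the log2 CPM in a library minus the gene's median library, for 6 WT libraries, on a colour scale that ends at -1 and 1. Collagens and mitochondrial DNA genes are lowest in WT 1 and WT 2, immediate early genes are highest in WT 6 (2.02), and most other entries lie near 0.

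Serpina1e, an alpha-1-antitrypsin paralog that inhibits serine proteases, was the 11th nuclear protein-coding gene by mean TPM, yet that mean described no single mouse. It had 2327, 1.08, 1.17, 1817, 1903 and 1932 CPM in WT 1 to 6. WT 2 and WT 3 were near 1 CPM and the other 4 between 1817 and 2327 CPM. Genes were screened, after these values were seen, for a gap of at least 4-fold between adjacent libraries with 2 or more libraries on each side. Of 9196 genes 3 passed, and all lie within 427 kb of chromosome 12 (chr12:103532283-103958975, mm10). Ppp4r4, a regulatory subunit of protein phosphatase 4, had 138, 9.71, 16.95, 151, 182 and 181 CPM. The antisense gene B430119L08Rik had 20.1, 1.15, 1.56, 14.7, 17.2 and 12.6 CPM. In both, WT 2 and WT 3 were again the lowest libraries.

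Other genes of that stretch were lower in level and did not all follow Serpina1e. Serpina6, the corticosteroid-binding globulin, had its lowest values in WT 2 and WT 3 (0.173 and 0.0434 CPM), and so had Serpina1d (0.670 and 1.15 CPM). In contrast Serpina1c had 5.79 and 7.18 CPM there and at most 0.357 CPM in the other 4 libraries. Serpina1a and Serpina1b had their highest values in the same 2 libraries, with 3.13 and 5.61 CPM and 5.34 and 7.999 CPM. Outside that stretch Ifi27l2a, an interferon-inducible gene, had 0.519 and 0.629 CPM in WT 2 and WT 3 and at least 1.34 CPM elsewhere. Its neighbour Ifi27 had 84.1 and 80.6 CPM there and at least 93.5 CPM elsewhere. Clmn and Dicer1, farther along the chromosome, had CVs of 4.35% and 12.7%. The Serpina1 genes are near-identical copies, and how the authors' counting divided shared reads is not given, so their separate levels are uncertain.

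**Figure D4:**
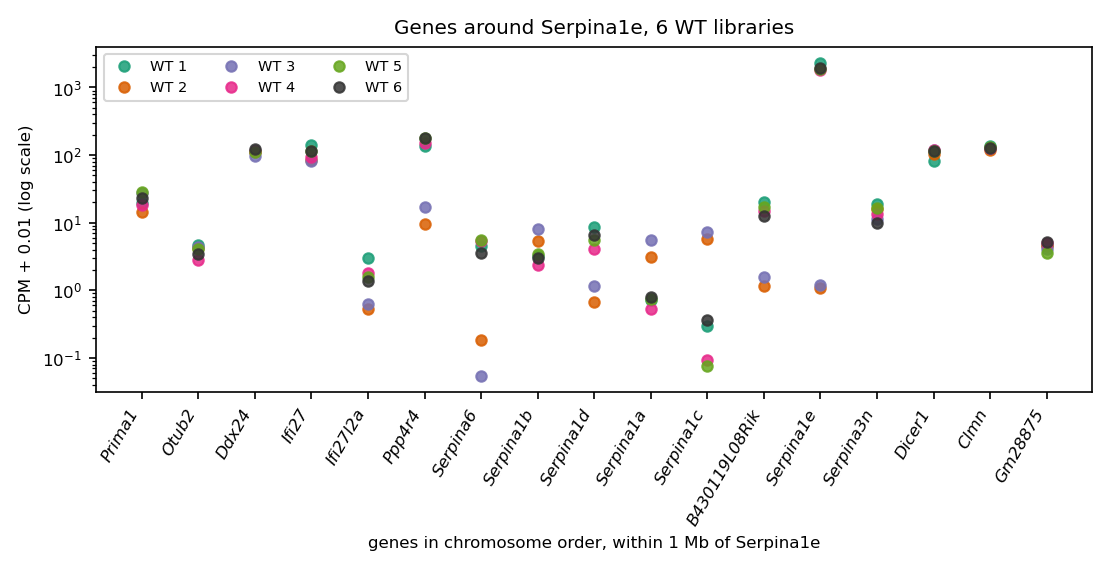
CPM + 0.01 (log axis) of the 17 genes at a mean of 1 CPM or more within 1 Mb of Serpina1e, in chromosome order, with 1 point for each of the 6 WT libraries. WT 2 and WT 3 are lowest for Ifi27, Ifi27l2a, Ppp4r4, Serpina6, Serpina1d, B430119L08Rik and Serpina1e and highest for Serpina1b, Serpina1a and Serpina1c.

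The bases before the RefSeq gene starts of Serpina1e (chr12:103956908-103957147, minus strand of GRCm38.p6) and Serpina1c (chr12:103904951-103905200, minus strand) show how alike the copies are where their levels were most opposed. A local alignment of their 250-base promoters covered 199 positions, of which 95.5% were the same. Capitals mark their longest shared stretch, 70 bases, which ends at the RefSeq start in Serpina1c and lies farther upstream in Serpina1e. In GENCODE M21 these minus-strand genes start at 103958975 (Serpina1e, beyond the printed bases) and 103904887 (Serpina1c), so this offset depends on the annotation. The last 10 bases before the RefSeq start of Serpina1e are left out.
Serpina1e: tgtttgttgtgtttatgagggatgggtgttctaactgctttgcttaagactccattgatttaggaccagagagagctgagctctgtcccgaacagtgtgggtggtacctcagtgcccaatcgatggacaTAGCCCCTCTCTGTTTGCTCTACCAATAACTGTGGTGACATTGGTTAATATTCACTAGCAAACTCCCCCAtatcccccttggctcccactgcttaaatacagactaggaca
Serpina1c: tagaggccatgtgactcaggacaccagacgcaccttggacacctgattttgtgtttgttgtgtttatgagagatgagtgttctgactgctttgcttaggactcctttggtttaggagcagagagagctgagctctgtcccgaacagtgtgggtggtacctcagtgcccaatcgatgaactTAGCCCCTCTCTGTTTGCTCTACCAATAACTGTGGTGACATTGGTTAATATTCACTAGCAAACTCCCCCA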

How the data were processed

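Raw gene counts were deposited as whole numbers for 32285 genes. STAR 2.7.11b was the aligner and mm10 the genome, per the submitters' processing notes. Which tool, annotation and strand setting gave the counts is not stated in the labels or headers. The authors also deposited TPM values for 32128 symbols, of which 30583 were joined to a count row, holding 98.6% of WT counts. For 8375 genes above 500 counts in every WT library, TPM followed the counts in all 6 libraries within 1%, and in 97.4% the implied length equalled the GENCODE M21 union of exons. Gene positions come from GENCODE M21.

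Scaling factors (TMM, edgeR 4.0.16 in R 4.3.3) were computed over the 6 WT libraries alone, and CPM, CV and biological variation follow from them. The design has 1 group, so no test of a difference was made. The spread estimate was tested on simulated counts of 9183 genes: a simulated CV of 15% gave a median of 14.2%, and 60% gave 55.6%. Each library is 1 mouse, and its depth (45657321 to 53261644 counts) and PCR copies limit low values.

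Members and lists were chosen with earlier results of these data known. Genes named in the text were drawn from the 30 highest nuclear protein-coding genes by TPM, the notochord list, the 6 highest members of each of 23 function lists and 3 of each of 16 lists of other cells, handling and sex. Added to these were the 20 most and 10 least variable protein-coding genes, the 25 highest transcription factors, the Hox genes at 1 TPM or more and the most variable member of each function list. Any other gene was named after its values were seen, to complete a pathway, a set of isoforms or a marker list, as were the chromosome 12 genes. Some genes of these groups are not reported here. Alternatives covered detection thresholds, units, scalings (DESeq2 1.42.0 size factors, plain totals), filters and each library left out. Removal of the 3 libraries whose reads go against labelled sex was chosen after seeing the data. Promoter sequences come from RefSeq (GRCm38.p6), and Biopython 1.88 aligned them.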

Additional observations from a re-analysis of the deposited data

Results flagged for a closer look

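Among the 6 libraries 1 value stood far from the other 5 for 35 of 282 named genes and 7 of 38 gene lists, by Dixon's 95% limit on the gap to the nearest library. These counts are no measure of how common such gaps are, since many of the genes were named for their wide spread. Over all 9196 genes at 10 CPM or more the same limit was passed by 489 (5.32%). The far library was the highest for 356 of them and the lowest for 133. The limit is set to be passed by about 1 in 20 sets of independent, normally distributed values, and whether these values are such was not tested. Among the named genes the far library was WT 6 for 14, WT 2 for 8, WT 5 for 6, WT 3 for 4 and WT 1 for 3, whereas over all genes it was most often WT 1 (198 genes), then WT 2 (109) and WT 6 (68). Every gene named here had its far value at the top, and each pair of values below is that library against the next highest, in CPM for genes and in summed TPM for lists.

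WT 6 stood apart in genes of the early response to stimuli. Fos had 2057 against 654, Egr1 991 against 238, Jun 749 against 329, Junb 334 against 99.5, Atf3 382 against 189.8 and Nr4a1 221 against 65.5. Klf2 had 536 against 285, Klf4 379.8 against 193, Klf6 761 against 559.9, Ier2 235 against 78.3 and Socs3 138 against 38.5. Hspa1a, an inducible heat shock protein, had 91.8 against 41.6. Outside this response Krt15 had 7.34 against 3.21 and Car12 0.0839 against 0.0217. The Car12 values rest on few reads, near the limit of a count of 0 (0.0629 CPM in WT 6). The immediate early list summed to 9849.7 TPM against 3751. The hypoxia list was the one list whose far value was at the bottom, at 6811 TPM in WT 6 against 7576 in the next lowest.

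WT 2 stood apart in genes of blood and marrow cells, all at low levels. Ngp had 7.35 against 0.303, S100a9 4.30 against 0.195, S100a8 3.87 against 0.282 and Mmp9 1.49 against 0.419. Slc4a1, the red cell anion exchanger, had 3.93 against 0.189, Alas2 1.69 against 0.217 and Cd79b 0.130 against 0.0217. The neutrophil list summed to 108 TPM against 5.29 and the red cell list to 11.1 against 1.80. Sema3c, a guidance signal, had 223 against 176 in WT 2.

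WT 5 was highest in muscle genes, with 7.45 against 1.97 for Acta1, 7.76 against 3.00 for Atp2a1 and 2.12 against 0.962 for Mylpf, and with 55.0 against 16.0 TPM for the list. The macrophage list had 235 against 179 TPM and the osteoblast list 13.1 against 5.404 TPM, with Ibsp at 3.12 against 0.774. Hoxd4 had 21.7 against 14.6 and Plin1 0.347 against 0.0865. WT 3 was highest for Dcn (68.5 against 27.4), Vcan (133 against 55.6), Slc12a2 (1627 against 1108) and Nog (0.845 against 0.302). WT 1 was highest for Acadl (47.3 against 32.7), Sdhd (68.7 against 54.7) and Etfa (46.5 against 36.9).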

How the results depend on the processing

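Shares of the TPM sum depend on dividing by gene length, so as shares of counts most moved. Proteases (0.866%), mitochondrial dynamics (0.125%) and clock genes (0.342%) stayed within 1 SD. The 10, 50 and 100 highest genes held 9.48%, 18.3% and 22.1% of counts. Notochord genes held 4.51%, tonicity and ion transport 3.39%, glycoproteins 2.12%, proteoglycans 1.90%, the cytoskeleton 1.81%, glycolysis 1.43%, hypoxia 0.596%, lipid synthesis 0.574%, antioxidants 0.560%, chaperones 0.549% and autophagy 0.544%. Collagens held 0.506%, glycosaminoglycan synthesis 0.473%, nuclear respiratory chain 0.305%, citric acid cycle 0.259%, ligands 0.245%, mitochondrial DNA 0.174%, cell cycle arrest 0.136%, fatty acid oxidation 0.0910% and Hox genes 0.0493%. With edgeR's filter on low counts in place of 10 CPM, the median CV was 13.8% and 378 genes had a CV above 50%. Leaving out each library in turn gave 12987 to 13058 detected genes, 56 to 82 genes with a CV above 50%, a median CV of 9.94 to 11.3%, and a biological variation of 18.1 to 19.7%. The lowest Spearman correlation was 0.962 to 0.973, the highest without WT 2. Means of the 287 named genes moved by less than 1 SD under both other scalings. The same limit cannot judge leaving out 1 library, because dropping 1 value cannot by itself move a mean by 1 SD. As a ratio, 26 of these means changed by over 1.5 times without 1 library. Ddx3y, for example, went from 23.7 to 0 CPM without WT 4. Without the 3 libraries against their labelled sex 13191 genes were detected, the median CV was 10.7% and 70 genes had a CV above 50%. Scaling was recomputed there, and 3 of the 287 means passed the limit of 1 SD, which is no measure of stability. No paired analysis was possible because the WT libraries form 1 group. At this depth values near the limit of a count of 0 (0.0566 to 0.0650 CPM) rest on few reads.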

Other observations

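Several of the most variable transcripts were not messenger RNAs. Gm26917, annotated as a long non-coding RNA, had 2389, 1056, 8820.0, 2267, 3804 and 7293 CPM in WT 1 to 6. Its neighbour on chromosome 17, Gm42418, annotated likewise, had 2639, 715, 2938, 3288, 4419.9 and 1413 CPM. Which RNA the reads of both stem from was not tested, so their spread need not be that of non-coding genes. Meg3, an imprinted long non-coding RNA expressed from the maternal copy, had 3.15, 3.96, 21.6, 4.61, 23.8 and 4.82 CPM, with WT 1 the lowest library.

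Chains of type IX collagen, which assembles with type II collagen, stood far apart in level. Col9a3 had 35.7 ± 11.5 TPM, against 3.28 ± 1.22 TPM for Col9a1 and 1.11 ± 0.823 TPM for Col9a2. Of the alternative isoforms of cytochrome oxidase subunit 4, Cox4i2 was higher than the common Cox4i1 in all 6 libraries, with the lowest Cox4i2 value at 388 and the highest Cox4i1 value at 346 TPM. Genes in this paragraph and the one before it were chosen after their values were seen.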
